A study of Mus musculus with 22 samples.

Results

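The 93 variable segments of the mouse immunoglobulin kappa locus measured here (gene symbols that begin with Igkv) were described in splenic immature B cells with and without gamma delta T cells. A segment was kept in a table of normalized counts where its mean over the libraries of that table was at least 10. This kept 81 of 101 Igkv rows in experiment 1, 93 of 102 in experiment 2 and 85 of 101 in culture, and 81 segments were kept in all 3 tables, out of 29294 gene identifiers in the series. The rows under the minimum held 0.660%, 0.110% and 0.451% of the Igkv value of the 3 tables. In experiment 1, Igkv1-132 with a mean of 9.54 was the row just under the minimum and Igkv4-78 with 10.7 the one just over it. Segment use is given as a share, the reads of a segment over all Igkv reads of that library, and as a level, the authors' normalized count.

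The series holds 22 libraries of total RNA from B220+CD93+ immature B cells of the spleen, in 7 groups. The depleted mice carried Tcrd-GDL, an allele at the T cell receptor delta locus that lets diphtheria toxin remove gamma delta T cells. They were given the toxin intraperitoneally on 2 occasions 48 h apart (15 ng per g each time), with analysis on day 8. They were set against untreated Tcrd-GDL mice, with 3 libraries each in experiment 1 and with 2 depleted (replicates 4 and 5) and 5 untreated libraries (replicates 4 to 8) in experiment 2. Experiment 2 also holds a toxin control of 3 libraries from mice of the reporter strain Tcrd-H2BeGFP that were given the same toxin. The labels do not say whether that strain carries a toxin receptor, so strain and toxin cannot be told apart when the toxin control is set against untreated mice. Against the toxin control, depleted mice share the toxin but not the strain. In culture, 3 libraries of immature B cells from untreated Tcrd-H2BeGFP mice kept with gamma delta T cells were set against 3 libraries of such cells kept alone. The labels give neither the age of the mice nor whether replicates came from separate animals, so p-values measure only the spread between these libraries, which may be technical.

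A kappa light chain is made when a B cell precursor joins 1 variable (V) segment to 1 joining (J) segment by cuts that RAG1 and RAG2 make at flanking recombination signals. The V segment encodes most of the antigen-binding domain, including the start of the third complementarity-determining region (CDR3), and each cell usually keeps 1 productive kappa or lambda chain. An immature B cell whose receptor binds self can edit it, replacing the joined V and J segments with a V segment farther upstream and a J segment farther downstream. V segments lie on both strands, so some join by deletion and others by inversion. In a sorted population, the shares of Igkv RNA therefore describe which V segments the cells carry, weighted by how much light chain RNA each cell makes, and in these bulk samples fewer cells using a segment and less RNA per cell cannot be told apart.

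The segments lie on chromosome 6 between 67555497 and 70704177 (GRCm38), 37 on the plus and 56 on the minus strand, in 17 families. The second number in a symbol counts from the J segments, and across the segments it ran against the genome start with a Spearman correlation of -0.994. Segments numbered 70 or more (43) are called J-distal here and the others (50) J-proximal. The annotation lists 92 as functional V genes and 1, Igkv2-116, as a pseudogene, and their spliced leader and V exons span 338 to 501 bases. Letters from the end of the V exon are printed for the segments that led the repertoire, so that they can be told apart. Capitals mark the germline part of CDR3, the letters after the conserved cysteine codon. They are GENCODE M21 transcripts, 5′ to 3′ in coding sense.
Igkv1-135: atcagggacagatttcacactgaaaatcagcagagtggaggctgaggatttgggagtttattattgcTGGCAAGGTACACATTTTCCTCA
Igkv1-117: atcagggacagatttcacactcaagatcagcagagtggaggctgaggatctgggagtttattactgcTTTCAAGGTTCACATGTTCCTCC
Igkv12-46: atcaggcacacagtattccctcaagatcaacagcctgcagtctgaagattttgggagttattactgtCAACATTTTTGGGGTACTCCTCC
Igkv6-15: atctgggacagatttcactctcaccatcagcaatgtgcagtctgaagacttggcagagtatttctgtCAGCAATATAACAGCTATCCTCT
Igkv10-96: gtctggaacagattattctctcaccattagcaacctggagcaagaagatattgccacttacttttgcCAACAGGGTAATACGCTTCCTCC
Igkv1-135 (chr6:67610419-67610508) and Igkv1-117 (chr6:68121738-68121827) lie on the plus strand, and Igkv12-46 (chr6:69764523-69764612), Igkv6-15 (chr6:70406469-70406558) and Igkv10-96 (chr6:68631963-68632052) on the minus strand.

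Next come 4 segments that stood out in a single toxin control library, described further on, and Igkv5-39, which stood out in 3 libraries.
Igkv4-62: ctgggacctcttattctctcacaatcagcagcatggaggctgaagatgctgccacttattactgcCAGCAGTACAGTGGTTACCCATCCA
Igkv4-70: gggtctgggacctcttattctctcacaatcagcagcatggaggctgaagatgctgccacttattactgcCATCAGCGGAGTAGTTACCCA
Igkv4-74: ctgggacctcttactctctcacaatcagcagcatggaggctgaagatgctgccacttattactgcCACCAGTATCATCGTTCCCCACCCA
Igkv1-99: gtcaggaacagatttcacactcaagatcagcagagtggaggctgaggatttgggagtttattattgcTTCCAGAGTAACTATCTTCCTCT
Igkv5-39: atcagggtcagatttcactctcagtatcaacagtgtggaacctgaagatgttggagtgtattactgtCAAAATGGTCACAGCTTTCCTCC
Igkv4-62 (chr6:69399812-69399901), Igkv4-70 (chr6:69267888-69267977), Igkv4-74 (chr6:69184826-69184915) and Igkv5-39 (chr6:69900424-69900513) are on the minus strand and Igkv1-99 (chr6:68542333-68542422) on the plus strand. The last pair shows how little can separate 2 segments: over the last 280 bases Igkv6-29 (chr6:70138462-70138551, minus strand) differed from Igkv6-20 (chr6:70335841-70335930, minus strand) at 5.
Igkv6-29: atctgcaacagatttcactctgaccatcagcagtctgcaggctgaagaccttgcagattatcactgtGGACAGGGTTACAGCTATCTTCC
Igkv6-20: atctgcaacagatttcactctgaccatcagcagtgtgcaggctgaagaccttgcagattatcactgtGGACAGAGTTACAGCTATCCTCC
Over those 280 bases, the identity of a segment to its closest relative had a median of 94.3% (67.5% to 98.9%), and 44 of the 93 segments had a relative at 95% or more. How reads that match several segments were counted is not given in the sources used here, so the values of such close relatives are uncertain. Igkv6-29 is among them, and so is Igkv4-62, whose closest relative Igkv4-55 differed at 14 of 280 bases. Igkv1-99 differed from its closest relative Igkv1-110 at 43.

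Read totals ran between 9794413 and 20343954 per library for experiment 1, between 22022330 and 36840455 for experiment 2, and between 17505909 and 28729574 for culture. Of these, 7758 to 56649 per library fell on Igkv segments. The B cell genes Cd79a, Cd79b and Ms4a1 were above the minimum in every table. Across all tested genes, the log2 level of a library differed from the mean of the others in its group with an SD of 0.310 to 0.584 in experiment 1, where depleted replicate 1 was farthest, and of 0.334 to 0.651 in experiment 2. The 2 depleted libraries of experiment 2, each measured against the other alone, stood farthest apart there, followed by untreated replicate 8 (0.511), and in culture co-culture replicate 3 was farthest (0.50). Between replicates, Igkv profiles varied beyond counting error in each of 26 pairs, with a chi-square per degree of freedom of 3.54 to 35.2.

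The repertoire was broad, and a few segments led it in every group. Of the 10 segments with the highest mean share, 8 were the same in all 3 tables: Igkv1-110, Igkv1-117, Igkv1-135, Igkv10-96, Igkv12-46, Igkv14-111, Igkv6-15 and Igkv6-23. Igkv1-135 led experiment 2 with a mean share of 6.53% and culture with 6.36%, and Igkv10-96 led experiment 1 with 5.43%. The remaining places among the 10 went to Igkv8-30 (3.24%) and Igkv17-127 (2.80%) in experiment 1, to Igkv8-30 (2.6%) and Igkv8-27 (2.56%) in experiment 2, and to Igkv9-120 (2.66%) and Igkv12-44 (2.6%) in culture. Shares spanned a 56.5-fold range in experiment 1, 194-fold in experiment 2 and 92.3-fold in culture, and 37, 35 and 35 segments averaged at least 1% in the 3 tables. Divided by exon length, Igkv1-135 and Igkv1-117 still ranked 1 and 2 in experiment 2 and Igkv10-96 still ranked 1 in experiment 1, while Igkv12-46 ranked 5 in place of 3 in experiment 2. Across segments, mean log2 shares correlated between tables with a Pearson r of 0.971 (experiments 1 and 2), 0.964 (experiment 1 and culture) and 0.979 (experiment 2 and culture), a description over 81, 81 and 85 segments that share their sequence and length.

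**Figure D1:**
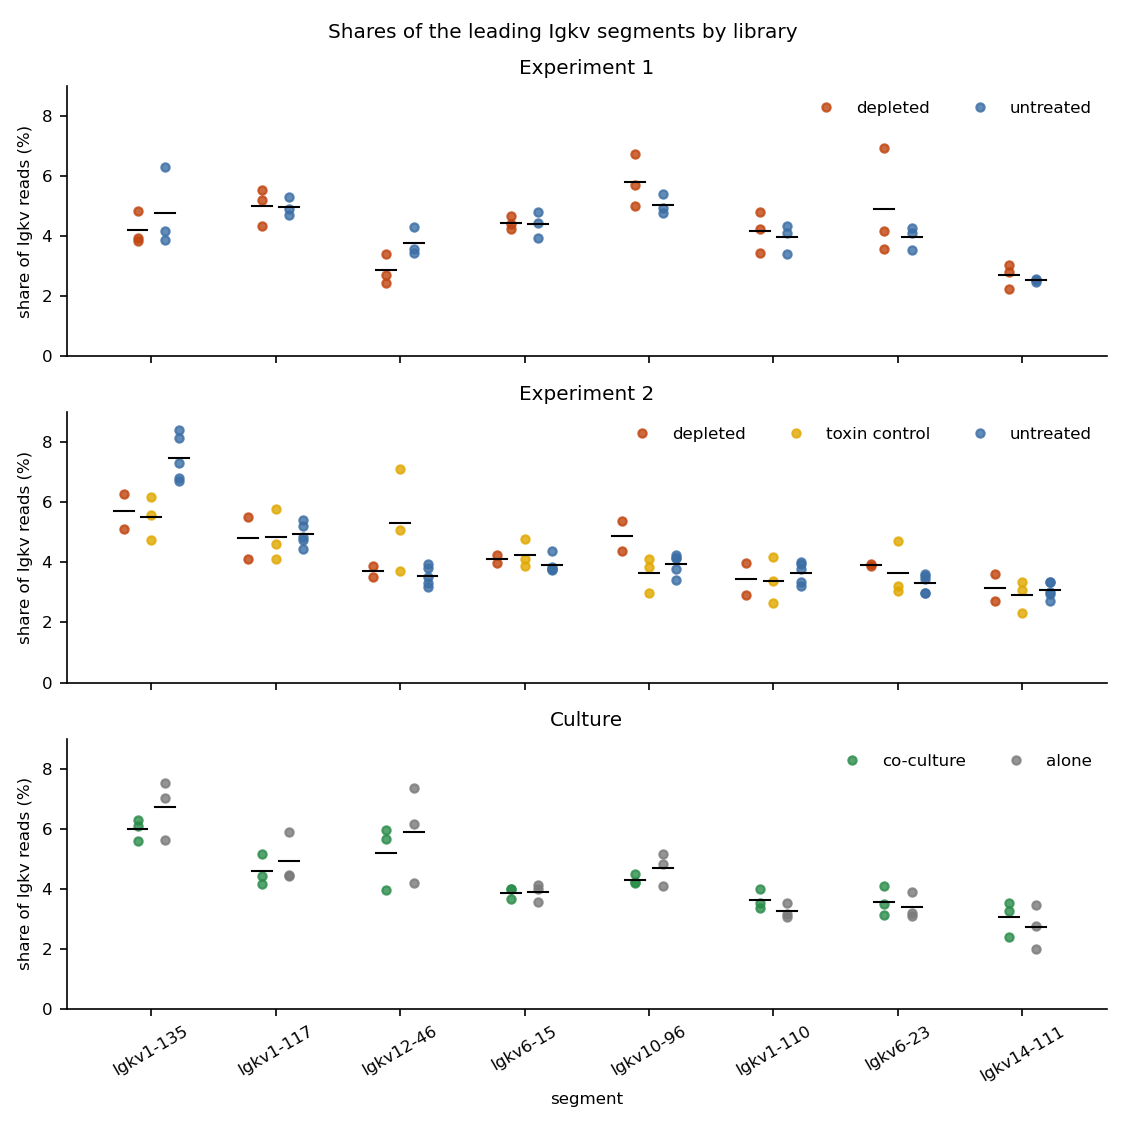
Share of Igkv reads (percent, y axis) of the 8 segments that were among the 10 leading ones in all tables, 1 point per library, coloured by group, with the group mean as a bar. Igkv1-135 averaged 6.53% in experiment 2 and Igkv10-96 averaged 5.43% in experiment 1, and most groups overlap.

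Shares were also summed by family. In experiment 2 the 8 kept Igkv1 segments made up 16.7% of Igkv reads on average, the 9 Igkv6 segments 14.2%, the 8 Igkv8 segments 13.2% and the 25 Igkv4 segments 11.2%. In that table Igkv4 thus had the most segments but a smaller share than these 3 families. Its mean share was above that of Igkv8 in experiment 1 (12.95% and 12.03%) and in culture (13.01% and 10.72%). It stayed below Igkv1 and Igkv6 in both. Igkv6 led in experiment 1 with 16.1%, where Igkv1 held 14.7%. The Igkv4 family took 15.2% in toxin control replicate 3, against 9.42% to 12.03% in the other libraries of experiment 2.

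The Igkv total gave no difference past the threshold in any comparison. In experiment 1 the Igkv total was 0.0792%, 0.108% and 0.0913% of all reads in the depleted libraries and 0.0812%, 0.103% and 0.0847% in the untreated ones, and the groups overlapped (two-sided exact permutation test, p = 0.8, where 3 against 3 cannot go below 0.1). In experiment 2 it was 0.107% ± 0.0120 in depleted (SD, n = 2), 0.137% ± 0.0216 in toxin control (n = 3) and 0.117% ± 0.0114 in untreated libraries (n = 5). Depleted against untreated gave an exact permutation p of 0.381 (smallest possible 0.0476), and toxin control against untreated 0.143 (smallest possible 0.0179). Depleted and toxin control libraries did not overlap, with p = 0.2 by the same exact test (smallest possible 0.1). In culture the total was 0.0737% ± 0.00104 in co-culture and 0.0781% ± 0.00487 in cells alone (SD, n = 3 each, exact permutation p = 0.3).

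The effective number of segments, the inverse of the summed squared shares, counts how many equally used segments would give the same evenness. It was 38.8 ± 1.87 in depleted and 41.1 ± 2.07 in untreated libraries of experiment 1 (SD, n = 3 each, exact permutation p = 0.3). In experiment 2 it was 40.6 ± 0.747 in depleted (n = 2), 40.9 ± 1.17 in toxin control (n = 3) and 39.0 ± 1.61 in untreated libraries (n = 5), with exact permutation p of 0.238 for depleted and 0.179 for toxin control against untreated and 0.9 between the toxin-treated groups. In culture the 3 co-culture libraries had 41.3, 40.3 and 40.6 and the 3 libraries of cells alone 39.3, 37.4 and 36.2. Those groups did not overlap, and the exact permutation p of 0.1 is the smallest that 3 against 3 can give.

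The J-distal segments took 41.9% to 49.0% of Igkv reads in every spleen library. They took 47.5% ± 2.07 in depleted and 47.5% ± 1.24 in untreated libraries of experiment 1 (SD, n = 3 each, exact permutation p = 1). In experiment 2 they took 44.8% and 47.6% in the depleted libraries, 46.5%, 46.2% and 41.9% in the toxin control, and 48.2%, 48.9%, 46.7%, 48.9% and 46.5% in the untreated libraries. Toxin control replicate 3 was the lowest of the 10. Exact permutation tests gave p = 0.0536 for toxin control against untreated (44.9% ± 2.6, n = 3, and 47.8% ± 1.17, n = 5), 0.238 for depleted against untreated and 0.7 for depleted against toxin control. In culture the J-distal share was 47.2% ± 1.29 with gamma delta T cells and 47.1% ± 1.05 without (SD, n = 3 each, exact permutation p = 1). Segments on the plus strand took 39.97% to 47.5% of Igkv reads in the spleen libraries.

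**Figure D2:**
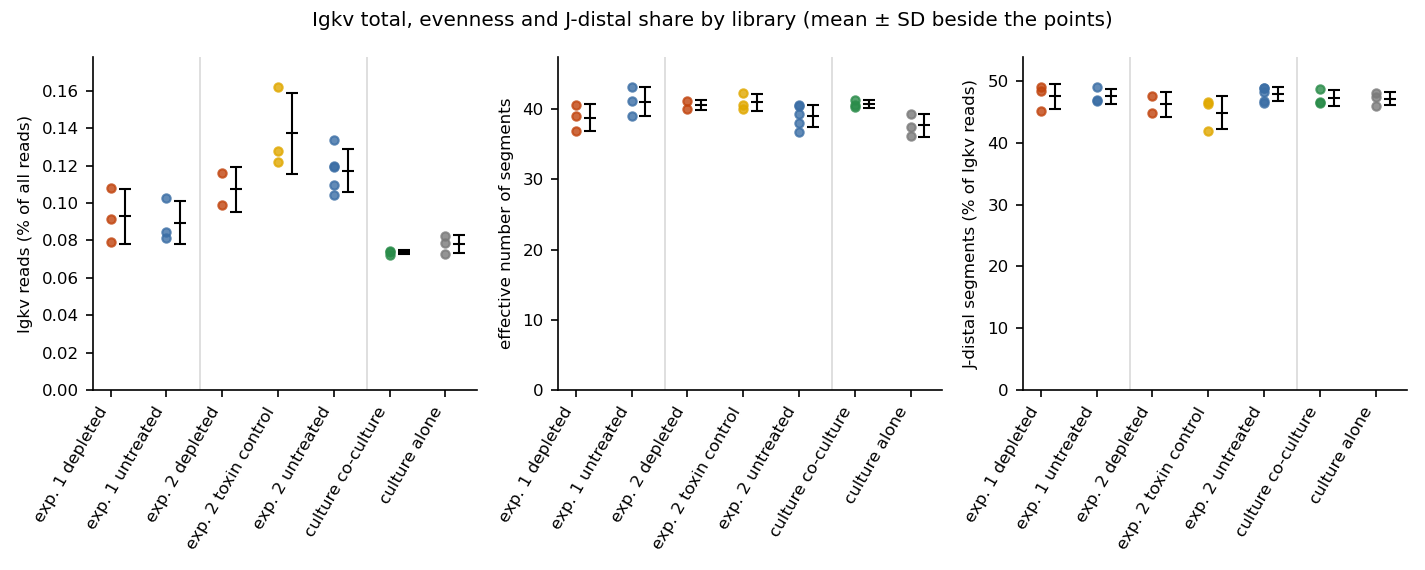
Igkv total (percent of all reads), effective number of segments and J-distal share (percent of Igkv reads) for each library, with mean ± SD beside the points of each group. Toxin control replicate 3 had the highest Igkv total (0.162%) and the lowest J-distal share (41.9%).

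Depletion was followed by no called segment in experiment 1. None of the 81 segments passed by level (limma, Benjamini-Hochberg adjusted p under 0.05 over 11701 genes) and none of all genes did (background 0%). At an unadjusted limma p under 0.05 there were 10 segments, beside 1033 of the 11701 genes. By share, 0 passed against a background of 0.718% of all genes (0.111% higher and 0.607% lower), with a lowest adjusted p of 0.0669 in limma. Here 6 segments had an unadjusted p under 0.05, beside 1290 of the 11701 genes. By level edgeR and DESeq2 called 0 as well. The median log2 difference of the 81 segments was 0.17 by level, beside -0.01 over all genes tested, and 73 lay within 0.5 on the log2 scale. By level, 9 segments had groups that did not overlap and were higher in depleted libraries (background 7.29%), and 0 were lower (background 7.88%). By share these counts were 5 higher (background 1.64%) and 4 lower (background 11.4%). For share backgrounds, here and below, every gene is divided by the Igkv total of its library. A group difference in that total therefore tilts the 2 directions of the background. Here the median log2 difference by share was -0.18 over all genes and 0.01 over the segments, so excess over the background cannot be read from these counts.

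The 3 segments with the smallest p by share in experiment 1 were all lower in depleted libraries and did not pass. Igkv3-2 had 0.825%, 0.818% and 1.32% of Igkv reads in the depleted libraries and 1.54%, 2.56% and 1.24% in the untreated ones (log2 difference of the share -0.81 ± 0.23, SE, limma adjusted p = 0.0669). Its groups overlapped, and untreated replicate 2 was highest. Igkv12-89 had 0.606%, 1.08% and 0.803% in depleted and 0.878%, 2.53% and 1.15% in untreated libraries (-0.76 ± 0.25, limma adjusted p = 0.142), again with untreated replicate 2 on top. Igkv14-100 had 0.941%, 1.15% and 0.878% in depleted and 1.28%, 1.5% and 1.47% in untreated libraries (-0.53 ± 0.23, limma adjusted p = 0.356), without overlap. Without depleted replicate 1, the library farthest from its group, 4 segments were called by level and higher (Igkv6-23, Igkv10-96, Igkv16-104 and Igkv8-27). By share Igkv3-2 was called without depleted replicate 3 or untreated replicate 3, and Igkv12-89 without depleted replicate 2.

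Experiment 2 gave no called segment between depleted and untreated libraries either. By level 0 of 93 passed (background 0.299% of 13364 genes), with 5 segments and 1309 of all genes at an unadjusted p under 0.05. By share 0 passed (background 0.703%, of which 0.471% higher), with 3 segments and 896 of all genes at an unadjusted p under 0.05. By level edgeR and DESeq2 called 0. The median log2 difference by level was -0.08, beside 0.00 over all genes tested, and 89 of 93 lay within 0.5 on the log2 scale. Without overlap, 2 segments were higher by level (background 5.78%) and 6 lower (background 6.56%), and by share 7 were higher (background 8.38%) and 4 lower (background 2.14%). The median log2 difference by share was 0.09 over all genes and 0.01 over the segments, so the share backgrounds are tilted.

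The nearest to a call in that comparison was Igkv6-29, which had a level of 5.48 and 7.00 in the depleted libraries and a range of 19.1 to 33.3 with a mean of 24.3 ± 6.59 in the 5 untreated ones (SD; log2 difference -1.78 ± 0.42, SE, limma adjusted p = 0.0952). Its groups did not overlap, but it rested on 5 and 6 reads in the depleted libraries, and its near copy Igkv6-20 held 424 and 284. Igkv1-135, the leading segment, had 5.12% and 6.27% of Igkv reads in the depleted libraries, against 6.81%, 8.16%, 7.30%, 8.40% and 6.70% in the untreated ones, and the groups did not overlap (log2 difference of the share -0.39 ± 0.19, SE, limma adjusted p = 0.678). By level its difference was -0.49 ± 0.15 (limma adjusted p = 0.213). In experiment 1 its depleted libraries had 4.83%, 3.94% and 3.85% and its untreated ones 4.19%, 3.87% and 6.29%, with overlap. Igkv8-21 had 2.99% and 2.18% in depleted libraries and 1.91%, 1.71%, 1.81%, 1.71% and 1.74% in untreated ones (0.52 ± 0.20, limma adjusted p = 0.394), also without overlap. Igkv8-21 had 2.15%, 2.28% and 2.03% in the depleted and 2.24%, 1.59% and 1.58% in the untreated libraries of experiment 1, where the groups overlapped.

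Against the toxin control, 3 segments differed by level in depleted libraries (background 9.07% of all genes, 4.58% higher and 4.49% lower) and 1 by share (background 4.12%, 1.86% higher and 2.25% lower). By level Igkv10-96 and Igkv15-103 were higher and Igkv6-29 was lower, and by share Igkv4-70 was lower. For the level, edgeR called 2 segments higher and 2 lower, beside 683 and 506 of 13364 genes. DESeq2 called 3 higher and 1 lower, beside 950 and 813 genes. A further count is that 14 segments were higher and 3 lower by level without overlap (backgrounds 21.1% and 20.9%), and 14 were higher and 8 lower by share (backgrounds 13.3% and 13%). The called share of segments was thus below the background by level and by share. The median log2 difference by level was 0.04, beside 0.00 over all genes tested.

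Igkv10-96 had a level of 1873 and 1496 in depleted libraries and of 1352, 1104 and 1195 in the toxin control (log2 difference 0.46 ± 0.13, SE, limma adjusted p = 0.0355). Igkv15-103 had 473 and 590 in depleted libraries and 378, 246 and 386 in the toxin control (0.68 ± 0.19, limma adjusted p = 0.0372). Neither overlapped. Igkv6-29 had 5.48 and 7.00 in depleted libraries and 19.8, 24.6 and 26.1 in the toxin control (-1.76 ± 0.46, limma adjusted p = 0.0281), with the limits of a near copy given above. All 3 calls were lost without depleted replicate 4, without toxin control replicate 2, with only the 2 groups in the fit or with no filter on low values. Without toxin control replicate 3 the call of Igkv15-103 held and the other 2 were lost, and 6 segments were called without depleted replicate 5. Igkv4-70 had 0.258% and 0.356% of Igkv reads in depleted libraries and 0.600%, 0.480% and 1.84% in the toxin control (log2 difference of the share -1.41 ± 0.32, SE, limma adjusted p = 0.00239). The groups did not overlap, and without toxin control replicate 3 the difference was -0.82 and no longer passed (limma adjusted p = 0.131). It did not pass without depleted replicate 4 (limma adjusted p = 0.112) or with no filter on low values (0.0625) either.

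The toxin control differed from untreated libraries in more segments. Their called share was nonetheless below the background by level and by share. By level 7 segments were lower and 0 higher in the toxin control (backgrounds 8.34% and 7.32%, 15.7% in either direction), and by share 3 were higher and 0 lower (backgrounds 5.25% and 1.34%, 6.58% in either direction). The lower ones were Igkv1-135, Igkv14-100, Igkv13-84, Igkv2-137, Igkv15-103, Igkv17-127 and Igkv8-24, of which all but Igkv8-24 are J-distal. The higher ones were Igkv4-70, Igkv4-61 and Igkv12-46, of which Igkv4-70 is J-distal. For the level, edgeR called 6 segments lower and 2 higher, beside 1082 and 1019 of 13364 genes. DESeq2 called 8 lower and 0 higher, beside 1365 and 1250 genes. By level the median log2 difference was -0.15, beside 0.00 over all genes, 65 of 93 segments were negative, and 0 were higher and 8 lower without overlap (backgrounds 11.6% and 11.7%). By share 6 were higher and 5 lower without overlap (backgrounds 6.91% and 3.76%, tilted by a median log2 difference of 0.14 over all genes). The median difference of the share was -0.06 over the 43 J-distal and 0.00 over the 50 J-proximal segments. For the level these medians were -0.20 and -0.13.

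Igkv1-135 had a level of 2035, 1599 and 1896 in the toxin control and of 2495, 3533, 2778, 2861 and 2190 in untreated libraries (log2 difference -0.58 ± 0.13, SE, limma adjusted p = 0.00994). The groups did not overlap. As a share it had 6.19%, 5.59% and 4.75% in the toxin control, again below every untreated library (-0.44 ± 0.16, limma adjusted p = 0.0805). Igkv13-84 had a level of 153, 101 and 156 in the toxin control and of 216, 252, 267, 190 and 169 in untreated libraries (-0.68 ± 0.19, limma adjusted p = 0.0238), without overlap. Igkv2-137 had 452, 429 and 378 in the toxin control and 575, 697, 525, 470 and 781 in untreated libraries (-0.52 ± 0.15, limma adjusted p = 0.0266), and it did not overlap by level but did by share. Igkv14-100 (-0.51), Igkv15-103 (-0.48), Igkv8-24 (-0.40) and Igkv17-127 (-0.30) had limma adjusted p of 0.0237, 0.0424, 0.0453 and 0.0425. Without toxin control replicate 2, which had the lowest level of 5 of these 7 segments, 0 were called. Without toxin control replicate 3 or any 1 of untreated replicates 4 to 7, 2 to 4 were called. Other cell markers moved with the toxin control: 4 of 8 tested T cell markers and 4 of 10 tested plasma cell markers were higher than in untreated libraries and 0 were lower, beside 7.32% of all genes higher and 8.34% lower. The T cell sum was 1245, 610 and 879 in the toxin control and 218 to 994 in untreated libraries. The myeloid sum was 797, 802 and 1215 in the toxin control and 377 to 1257 in untreated libraries, of which 4 had at most 577, and 0 of 5 myeloid markers were called. The part of those cells in the segment values was not tested.

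**Figure D3:**
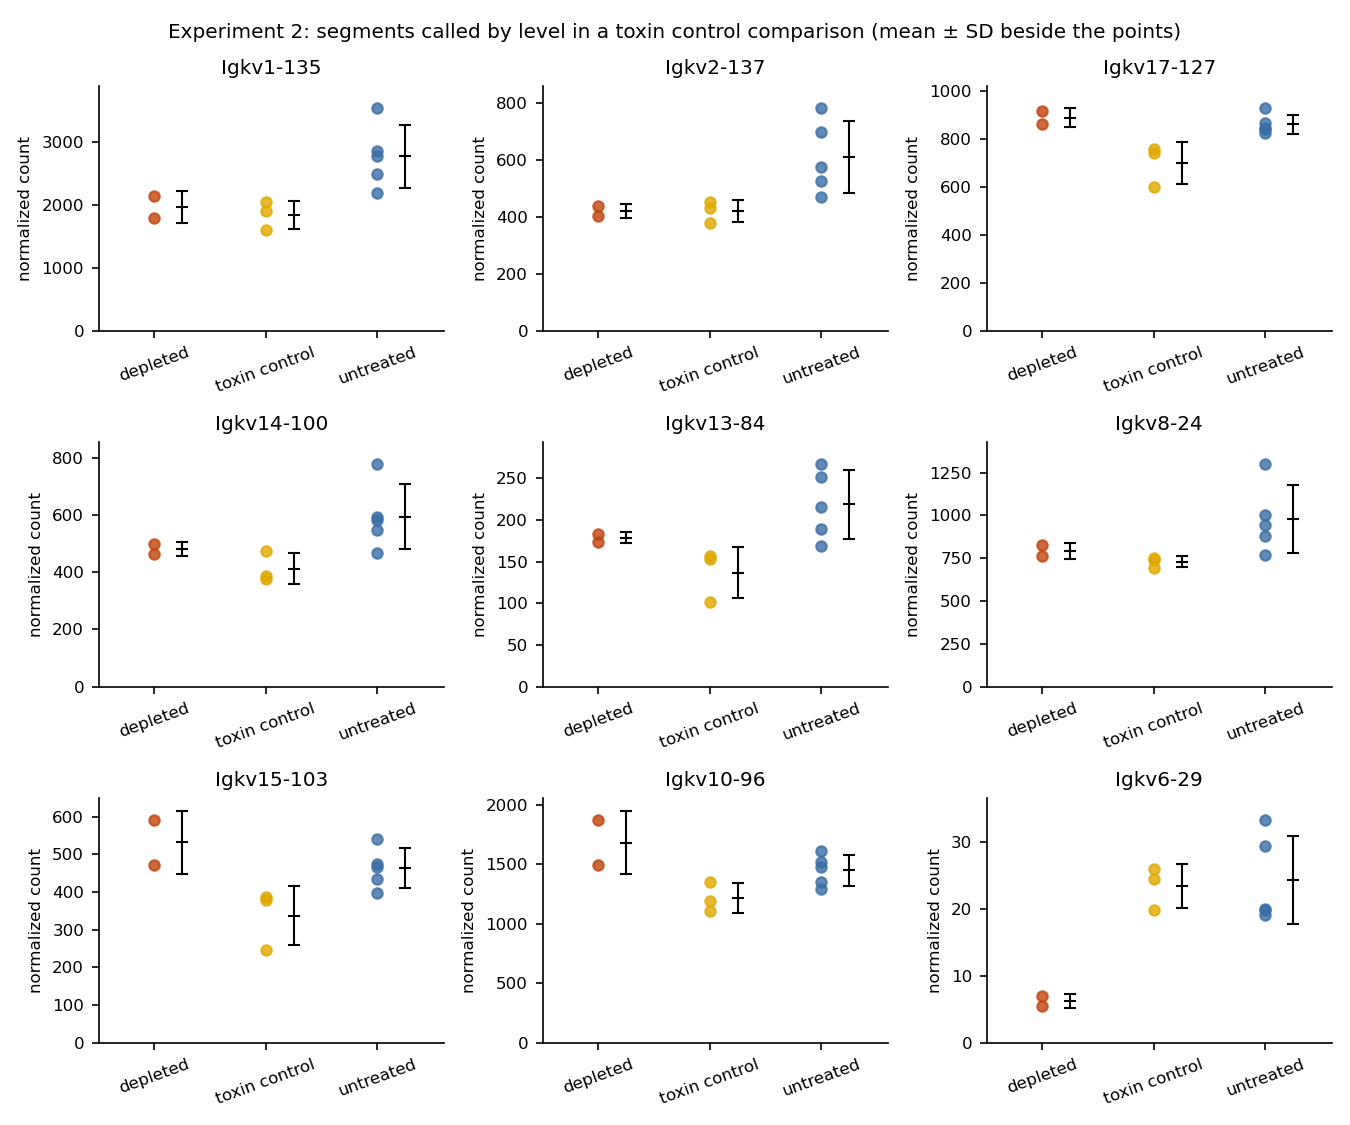
Normalized count (y axis, from 0) of the 9 segments called by level in a comparison with the toxin control, 1 point per library of experiment 2, with mean ± SD beside the points. Igkv1-135 lies between 1599 and 2035 in the toxin control, below every untreated library, while Igkv6-29 is low in both depleted libraries.

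None of the 3 segments called by share held its call without toxin control replicate 3. Igkv4-70 had 0.600%, 0.480% and 1.84% in the toxin control and 0.478%, 0.296%, 0.443%, 0.400% and 0.366% in untreated libraries (log2 difference of the share 1.04 ± 0.25, SE, limma adjusted p = 0.00606), and 0.45 with an adjusted p of 0.221 without that replicate in limma. Igkv12-46 had 5.08%, 3.70% and 7.12% in the toxin control and 3.51%, 3.83%, 3.96%, 3.18% and 3.30% in untreated libraries (0.53 ± 0.17, limma adjusted p = 0.046), and the groups overlapped. Igkv4-61 had 0.255%, 0.465% and 0.401% in the toxin control and 0.244%, 0.209%, 0.243%, 0.180% and 0.0764% in untreated libraries (1.03 ± 0.29, limma adjusted p = 0.0218), without overlap and with replicate 2 highest. Without replicate 3 it differed by 0.95 (limma adjusted p = 0.0914) and Igkv12-46 by 0.29 (limma adjusted p = 0.236). The 1 segment called by share without replicate 3 was Igkv9-129 (1.62, limma adjusted p = 0.0230), which is high in replicate 2, and with no filter on low values 0 were called. A share is tested with a spread pooled over all genes, which all carry the noise of the library's Igkv total, so the error of a segment that varies more than most is drawn toward a shared value.

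Co-culture with gamma delta T cells changed no segment past the threshold. By level 0 of 85 passed (background 2.16% of 12386 genes, 1.1% higher and 1.06% lower), and by share 0 (background 1.39%, of which 1.19% higher). At an unadjusted p under 0.05 there were 9 segments by level, beside 1563 of all genes, and 6 by share, beside 1347. By level edgeR and DESeq2 called 0. The median log2 difference by level was -0.12, beside 0.00 over all genes tested, with 28 segments positive and 57 negative. Without overlap, 5 were higher and 11 lower by level (backgrounds 7.94% and 10.4%), and 6 higher and 2 lower by share (backgrounds 14.5% and 3.52%). The share backgrounds are tilted here too, with a median log2 difference of 0.14 over all genes and 0.03 over the segments. The smallest p by share belonged to Igkv6-25, with 1.04%, 1.42% and 0.951% in co-culture and 0.801%, 0.817% and 0.547% in cells alone (log2 difference of the share 0.66 ± 0.22, SE, limma adjusted p = 0.224). Igkv6-32 had 1.67%, 1.40% and 1.29% in co-culture and 0.978%, 0.911% and 1.09% in cells alone (0.54 ± 0.19, limma adjusted p = 0.251), and Igkv1-122 had 0.339%, 0.353% and 0.321% against 0.252%, 0.236% and 0.145% (0.70 ± 0.29, limma adjusted p = 0.367). In these 3 the groups did not overlap.

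**Figure D4:**
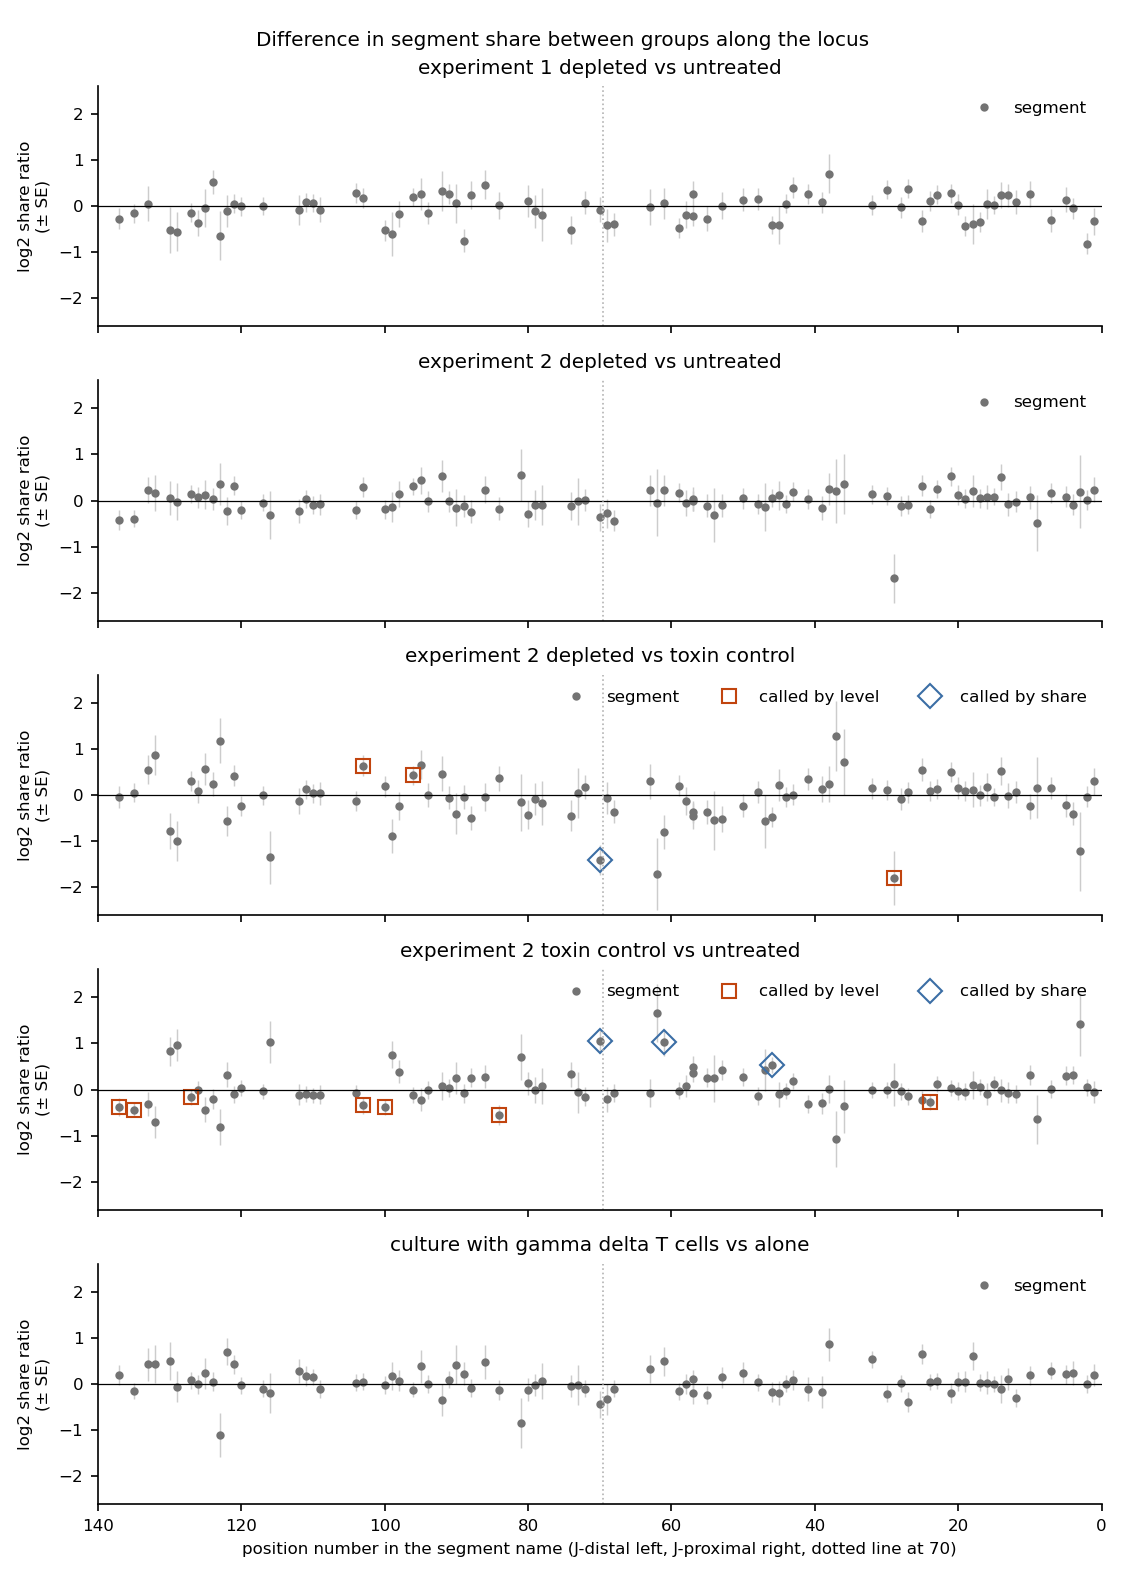
Log2 difference of the share between groups (y axis, ± SE) for each segment against the position number in its name (x axis, J-distal on the left), in the 5 comparisons. Squares mark segments called by level and diamonds those called by share, and most segments lie within 0.5 of 0.

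Some segments were high in a single library. Among segments with a mean level of at least 50, toxin control replicate 3 had 5 at over 2 times the median share of the other libraries of experiment 2, and untreated replicate 8 had 6 that were over 2 times or under 0.5 times that median. The other libraries of experiment 2 had 0 to 2. In experiment 1 only untreated replicate 2 had any (3), and in culture co-culture replicate 3 had the most (3).

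Igkv4-62 was the most extreme. It had 1.07% of Igkv reads in toxin control replicate 3 (608 of 56649 reads, exact Clopper-Pearson 95% interval 0.990% to 1.16%) and 0.0196% to 0.0407% in the other 9 libraries of experiment 2, a 40.7-fold excess over their median. It passed the minimum in experiment 2 through that library, and in culture its mean of 6.74 lay under the minimum. Igkv3-3, the kept segment of the lowest mean, had 0.0989% in toxin control replicate 3 and 0.00527% to 0.0537% elsewhere. It too passed the minimum only through that library. In the same library Igkv4-70 had 1.84% against 0.258% to 0.600% elsewhere, Igkv4-74 had 1.28% against 0.290% to 0.556%, Igkv1-99 had 0.849% against 0.174% to 0.333%, and Igkv1-122 had 0.593% against 0.204% to 0.393%. Together these 5 segments took 5.63% of Igkv reads there and 1.07% to 1.54% in the other libraries. They were picked for being high in that library, so this contrast follows from the choice. Their germline CDR3 letters, printed above for 4 of them, differ. These intervals cover counting error only, since reads are not independent molecules.

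Some constant region genes of class-switched antibodies were high in that library, while Ighg1, Mzb1 and Sdc1 lay within the range of the others. The summed level of 11 of 12 plasma cell markers was 12337, 11405 and 24240 in toxin control replicates 1 to 3, 8653 and 9282 in the depleted and 9508 to 11359 in the untreated libraries. Igha, the IgA constant region, had 5088 in toxin control replicate 3 and 25.7 to 206 in the other 9 libraries. Ighg3, an IgG constant region, had 4269 there and 7.48 to 252 in the others, and Ighg2b had 2734 there and 44.9 to 1232 in the others. Ighg2c had 2429 there and 11.2 to 1927 in the others. Xbp1, another listed plasma cell marker, had 2142 there and 1397 to 2058 in the others. Ighg1 had 129 there, under the 282 of toxin control replicate 1, and Mzb1, an endoplasmic reticulum protein of secreting cells, had 2803, within the 1996 to 3603 of the others. Sdc1, the plasma cell surface marker syndecan-1, had 483 there, within the 317 to 689 of the others, and Jchain was not analysed here. The part of such cells in the segment values was not tested.

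Igkv9-129 was high in toxin control replicate 2, with 1.12% (313 of 27942 reads, Clopper-Pearson 95% interval 1.00% to 1.25%) against 0.0896% to 0.250% in the others, and Igha and Ighg3 had 76.8 and 252 there. Ighg2b and Ighg2c had 1207 and 1927 in that library, against 44.9 to 1032 and 11.2 to 672 in untreated libraries. In toxin control replicate 1 they had 1232 and 1180. Their part in the Igkv9-129 share was not tested. Igkv5-39 had 3.62% in untreated replicate 8 of experiment 2 and 0.949% to 1.36% in the other 9 libraries. That untreated library also had the highest summed T cell (994) and myeloid markers (1257) of its group, where the others had 218 to 354 and 377 to 577, and the part of those cells was not tested.

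**Figure D5:**
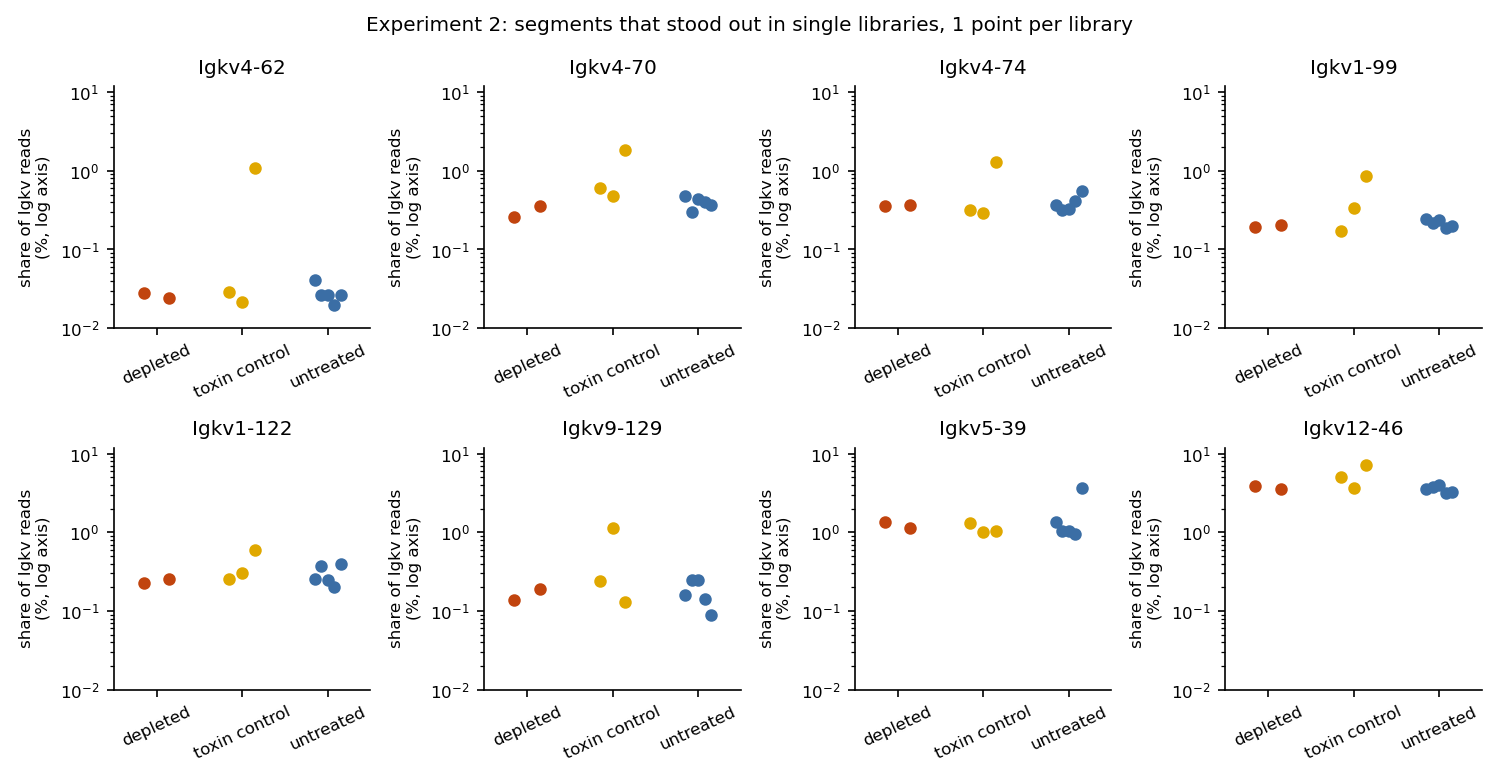
Share of Igkv reads (percent, log axis) of 8 segments in the libraries of experiment 2, 1 point per library. Igkv4-62 stands at 1.07% in 1 toxin control library and at 0.0196% to 0.0407% in the others, and Igkv5-39 at 3.62% in 1 untreated library.

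In culture Igkv5-39 was high in the libraries numbered 1 of both groups, with 2.42% in co-culture replicate 1 and 2.65% in cells alone replicate 1, against 0.879% and 1.03% in the other co-culture and 0.944% and 1.27% in the other libraries of cells alone. Across segments with a mean of at least 50, deviations from the group mean correlated at 0.242 to 0.346 between same-numbered libraries of the 2 culture groups and at -0.253 to 0.013 between different numbers, a description over segments that share these libraries. Deviations within a group sum to 0, so positive values for same numbers pull those for different numbers below 0 on average. The contrast is thus partly built in. The labels do not say what a shared number means. Other segments were high in single culture libraries: Igkv4-86 had 0.832% in co-culture replicate 2 against 0.210% to 0.379% elsewhere, Igkv10-95 had 0.741% in co-culture replicate 3 against 0.219% to 0.422%, and Igkv4-61 had 0.827% in co-culture replicate 3 against 0.264% to 0.451%. Igkv9-123 had 0.152% in cells alone replicate 3 (22 reads) against 0.0459% to 0.126%. In that library Igkv4-70 had 1.32% against 0.418% to 0.663% elsewhere in culture. Igkv3-4 had 2.08% in co-culture replicate 3 against 0.773% to 1.30%. In experiment 1, untreated replicate 2 had 2.53% of Igkv12-89 against 0.606% to 1.15% in the others, 1.27% of Igkv4-70 against 0.476% to 0.704%, and 2.56% of Igkv3-2 against 0.818% to 1.54%. Igkv9-123 had 0.339% in untreated replicate 1 (56 reads) against 0.0525% to 0.142% elsewhere, and Igkv1-133 had 0.567% in depleted replicate 1 (44 reads) against 0.115% to 0.391%. Untreated replicate 2 had the highest summed plasma cell markers of its table, 5603 against 3956 to 5143, and their part was not tested.

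The constant and joining segments were followed beside the variable ones. Igkc, which encodes the constant region of every kappa chain, was not called in any comparison: it had a level of 48847 ± 1007 in depleted (SD, n = 2), 49057 ± 4053 in toxin control (n = 3) and 52580 ± 4551 in untreated libraries (n = 5) of experiment 2. Igkj3 was lower in the toxin control than in untreated libraries, 213 ± 16.9 and 336 ± 22.2 (SD, n = 3 and 5, log2 difference -0.66, limma adjusted p = 0.00478), and so was Igkj4, 332 ± 30.9 and 449 ± 44.7 (-0.43, limma adjusted p = 0.0224). Igkj3 is a joining segment held to be non-functional in the mouse, and Igkj4 is used in kappa chains. Igkj1, Igkj2 and Igkj5 were called in no comparison, and Igkj5, the last J segment, held 37.9% to 49.3% of Igkj value in the libraries.

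Rag1, the recombinase that joins and edits light chains, was lower in depleted libraries of experiment 2 at a level of 36.2 and 52.5, against 611, 726 and 581 in the toxin control and 210, 299, 94.8, 171 and 169 in untreated libraries. The log2 difference was -1.99 ± 0.30 against untreated (SE, limma adjusted p = 0.0130) and -3.84 ± 0.33 against the toxin control (limma adjusted p = 9.38e-06), and it was 1.84 ± 0.26 for the toxin control against untreated (limma adjusted p = 0.00187). No group overlapped another. In experiment 1 Rag1 had 42.8, 13.7 and 8.42 in depleted and 38.8, 32.7 and 53.4 in untreated libraries (limma adjusted p = 0.555), and in culture 67.7 ± 18.4 with and 93.5 ± 14.1 without gamma delta T cells (SD, n = 3 each, limma adjusted p = 0.411).

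Of the 13 recombination and joining genes, Rag1 alone was called in depleted against untreated libraries of experiment 2, and Rag1 and Rag2, its partner, were lower in depleted libraries than in the toxin control, with a median log2 difference of the list of -0.20 beside 0.00 over all genes. Of 16 transcription factors that act on the kappa locus, 5 were higher in the toxin control than in untreated libraries (7.32% of all genes were), led by Ebf1 (0.52), Ikzf1 (0.44) and Nfkb1 (0.44), with limma adjusted p of 0.00460, 0.00593 and 0.00801, and the list's median log2 difference was 0.26 beside 0.00 over all genes. Of the same factors, 5 were lower in depleted libraries than in the toxin control (4.49% of all genes were), which shares its libraries with the previous comparison, and 1, Rel, was higher in co-culture (0.50, limma adjusted p = 0.0488, beside 1.1% of all genes). Markers of B cell maturity also differed. Cd93, the sort marker and a transitional marker, had 2082 ± 286 in the toxin control and 1189 ± 192 in untreated libraries (SD, n = 3 and 5, log2 difference 0.81, limma adjusted p = 0.00232). The sum of 7 transitional markers was 6903, 7104 and 7294 there, 3870 and 4668 in depleted and 5072 to 5976 in untreated libraries. Ighd, which mature follicular cells express highly, had 18384 ± 4356 in depleted (n = 2) and 10637 ± 1157 in untreated libraries (0.78, limma adjusted p = 0.0209). The sum of 4 mature follicular markers was 46736.5 and 36945 in depleted and 28822 to 36582 in untreated libraries. In experiment 1 the transitional sum was 2288, 1914 and 2133 in depleted and 2522 to 2824 in untreated libraries, without overlap. The mature follicular sum there was 18689, 26861 and 22200 in depleted and 16522 to 20031 in untreated libraries, with overlap. The part of B cell maturity in the segment values was not tested. Lambda segments, of which 4 of 9 listed genes were tested, and the surrogate light chain genes, of which 1 of 4 was tested, gave no call in any comparison.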

How the data were processed

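Total RNA of sorted B220+CD93+ spleen B cells was sequenced after SMART-Seq Stranded library preparation, per the labels' protocols. Reads were aligned with STAR 2.5.2b to mm10, per the submitters' processing notes. For the gene counter, strand setting, annotation and scaling method, nothing is stated in the labels or notes used. The deposited signal values are normalized counts, which the authors scaled separately in each of 3 tables, so comparisons stay within a table. Dividing by the value of 1 read gave whole reads for 100% of values within 0.01.

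Genes with a mean of at least 10 were tested with limma 3.58.1 (R 4.3.3, moderated with a trend) on log2(value + 1), as levels and after subtracting the log2 Igkv total (shares), with Benjamini-Hochberg adjustment over all genes tested and a threshold of 0.05. Fold changes on this scale understate those of low genes. In experiment 2 the 3 groups share 1 fit. Single values were compared by two-sided exact permutation tests (scipy 1.17.1). edgeR 4.0.16 (TMM) and DESeq2 1.42.0 were run on the recovered reads as alternatives. Simulated data were used to test the scripts. Other alternatives were another pseudocount (5), other filters (none, 50), quantile normalization, a replicate block, leaving out each replicate and, chosen after seeing the data, a robust estimate of the spread.

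Segments were matched to GENCODE M21 (GRCm38), 91 by identifier and 2 by symbol. For Igkv12-47 and Igkv4-73 identifier and symbol disagree. By identifier they start at 68930269 and 69681406, while the V exon ends of the transcripts with these symbols start at 69750854 and 69197583. Family, position number and closest relative follow the symbol, so they are uncertain for these segments. Named were the 10 leading segments of each table, every called segment or else the 3 with the smallest p by share, the 5 segments per table most raised in 1 library, the J and constant genes, Rag1 and some of the called members of the lists. Igkv4-74, Igkv5-39 in experiment 2, Igha, Sdc1, Mzb1, Ighg1, Igkv16-104 and closest relatives were named after their values were seen. The members, lists and tests were chosen with earlier results of these data known.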

Additional observations from a re-analysis of the deposited data

Results flagged for a closer look

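In the untreated group of experiment 2, the only group of 4 to 10 libraries, 40 values were checked with Dixon's criterion, for which 5 libraries need a gap above 0.71 of their range. Chance alone marks about 1 in 20 such groups, and 4 of the 40 were marked. Igkv5-39 had 3.62% of Igkv reads in untreated replicate 8 and 0.949% to 1.36% in the other 4 libraries. In the same library Igkv2-137 had 2.39%, against 1.38% to 1.61% in the others, and Igkv4-86 had 0.221%, against 0.262% to 0.278%. Igkv6-15 had 4.37% in untreated replicate 6 and 3.74% to 3.85% in the others.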

How the results depend on the processing

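Of the alternatives for single segments, 533 kept their direction and side of the threshold, 66 lost a call, 13 gained one and none reversed. Among the alternatives for the summary results of the groups, 218 stayed the same, 3 were stronger, 33 moved and 13 reversed. The counts called by level depended most on single libraries. Leaving out 1 library gave 0 to 4 in experiment 1 (4 without depleted replicate 1), 0 to 1 for depleted against untreated in experiment 2, 0 to 6 for depleted against toxin control and 0 to 9 for toxin control against untreated. By share the ranges were 0 to 1, 0 to 3 for depleted against toxin control, 1 to 5 for toxin control against untreated and 0 to 1 in culture. With no filter on low values, depleted against toxin control had 0 by level and 0 by share, and toxin control against untreated 4 by level and 0 by share. With only the 2 groups compared, these counts were 0 by level for depleted against toxin control and 6 by share for toxin control against untreated. In experiment 1, 1 segment was called by share with a pseudocount of 5, 1 with a mean of at least 50 and 1 with the robust estimate. Where 1 depleted library of experiment 2 is left out, the lone library is taken to vary as much as the libraries of the remaining groups.

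The labels do not say what a replicate number stands for. Deviations of same-numbered libraries over other genes correlated at -0.0428 to 0.0464 (experiment 1), -0.107 to -0.0705 (experiment 2) and -0.0392 to 0.232 (culture). Over Igkv segments all 3 culture pairs correlated at 0.159 to 0.236, so in culture a pairing is possible. These pairs are not independent, since deviations within a group sum to 0. With a replicate block, 1 segment was called by level for depleted against untreated in experiment 2 (Igkv1-135, -0.60, limma adjusted p = 0.0439) and 0 in experiment 1 and culture. No paired analysis was possible for the toxin control because it shares no replicate number with the other groups.

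Small differences turned sign. The Igkv total of experiment 1 differed by -0.00434 without depleted replicate 2 and -0.000890 without untreated replicate 1 (range -0.00434 to 0.0101), and the toxin control minus untreated difference ranged from 0.00754 to 0.0276, passing at 0.0240 without untreated replicate 5. The J-distal difference of experiment 1 was 0.0138 with all Igkv rows, 1.14 without depleted replicate 3 and 0.675 without untreated replicate 3 (range -0.778 to 1.14). It ranged from -0.202 to 2.70 for depleted against toxin control, from -3.78 to -1.46 for toxin control against untreated (past the threshold at -2.98 without pseudogenes and at -3.78 without toxin control replicate 1) and from -0.626 to 0.564 in culture. Without the leading segment the effective number differed by -1.11 for depleted and -0.884 for toxin control against untreated, and for depleted against toxin control it ranged from -0.905 to 0.283. The cause was not tested, beyond the fewer libraries or rows that these alternatives use. Depth limits segments with few reads, such as Igkv6-29.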
